A study of Mus musculus with 6 samples.

Results

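Expression of 10 genes of the integrated stress response and of genes around it was followed in bone marrow-derived macrophages (BMMs) kept with or without recombinant growth differentiation factor 11 (rGDF11). The genes were *Atf3*, *Atf4*, *Atf5*, *Ddit3*, *Ddit4*, *Trib3*, *Chac1*, *Asns*, *Sesn2* and *Txnip*. They were picked by name, and lists of related genes from background knowledge, in both cases with earlier results of these data known. Counts set beside the share of all probe sets are therefore descriptive and no test. Each of the 10 had 1 probe set that the platform annotation pairs with that symbol alone, and they are 10 of 19938 genes measured in this way. BMMs were grown with M-CSF from the marrow of mice 9 weeks old, female C57BL animals by the study's methods. Both groups were then treated for 24 h with RANKL at 50 ng/ml, the cytokine that turns macrophages into osteoclasts, M-CSF being kept at 100 ng/ml. The vehicle group (3 arrays) had no further addition that the labels name, and the rGDF11 group (3 arrays) also had rGDF11 at 100 ng/ml, a ligand of the TGF-β family. No group was kept without RANKL. The labels call the samples biological replicates but do not say whether they came from separate mice, so p-values describe only how these samples vary, which may be technical.

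RNA was read on Affymetrix Mouse Gene 1.0 ST arrays, and a level is the log2 value that the robust multichip average (RMA) gives for a probe set. Levels are compared between groups for one gene, never between genes. Rising and falling are reserved for genes with an adjusted p under 0.05 in limma's test. The macrophage markers had a mean level of 11.28 to 11.30 with vehicle and 10.87 to 10.95 with rGDF11, with *Csf1r* (log2 fold change −0.08) and *Lyz2* (−0.02) not passing the test, while 6 of the 10 fell. The osteoclast markers rose from a mean level of 7.31 to 7.32 to one of 8.02 to 8.12, with 6 of 10 higher and 1 lower, *Acp5* (1.87) and *Nfatc1* (1.33) among the rising ones. Lists for 8 other marrow cell types were short, with 3 to 9 genes measured. Higher were 2 of 9 neutrophil, 2 of 6 stromal, 1 of 6 dendritic and 1 of 3 erythroid genes. Lower were 1 of 3 megakaryocyte and 1 of 5 B cell genes. Over all tested probe sets 7.31% were higher and 8.64% lower. Megakaryocyte markers went from 7.24 to 7.34 to 6.75 to 6.94 and neutrophil markers from 5.69 to 5.72 to 5.97 to 6.06. Stromal markers went from 5.47 to 5.68 to 5.77 to 5.94 and B cell markers from 4.96 to 5.08 to 4.76 to 4.89. For dendritic markers every rGDF11 array lay above every vehicle array, up to 5.40 against up to 5.07. The remaining lists overlapped between the groups and lay between 4.10 and 5.26. The part of these shifts in the results was not tested, and fewer cells of a type cannot be told apart from less RNA per cell.

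The integrated stress response slows protein synthesis when cells lack amino acids, accumulate unfolded protein, meet viral RNA or lack heme. Each of these signals has its own kinase, and all of them phosphorylate the translation factor eIF2α. Most translation then falls, but that of a few mRNAs rises, and ATF4 is the best known of their products. With C/EBP partners, ATF4 switches on genes of amino acid supply, such as *Asns*, and genes of stress control, such as *Atf3*, *Ddit3*, *Trib3*, *Chac1* and *Sesn2*. Because ATF4 is controlled largely at translation, its mRNA level is an incomplete reading of its activity, and neither protein nor phosphorylation was measured on the arrays.

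ATF4 binds with a C/EBP partner to the C/EBP-ATF response element. Its core was searched as TGATGNAA on both strands in the 250 bases before each start in RefSeq's promoter table (build GRCm38.p6), which held 11 starts for all 10 genes, *Atf5* having more than 1. It was present in *Atf3*, *Chac1* and *Asns*, against 3.45% of 32851 promoters of the same length. These sequences are shown because they are the ones among the 10 genes with an exact match to this core in that window. They run 5′ to 3′ in the direction of the gene, with the core in capitals. That of *Atf3* is chr1:191183334-191183583, minus strand, that of *Chac1* chr2:119350992-119351241, plus strand, and that of *Asns* chr6:7693210-7693459, minus strand.
Atf3: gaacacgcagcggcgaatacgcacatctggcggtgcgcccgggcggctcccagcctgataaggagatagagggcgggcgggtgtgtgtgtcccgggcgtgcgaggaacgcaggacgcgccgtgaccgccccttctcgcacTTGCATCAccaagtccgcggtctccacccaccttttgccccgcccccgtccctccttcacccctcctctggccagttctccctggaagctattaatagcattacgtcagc
Chac1: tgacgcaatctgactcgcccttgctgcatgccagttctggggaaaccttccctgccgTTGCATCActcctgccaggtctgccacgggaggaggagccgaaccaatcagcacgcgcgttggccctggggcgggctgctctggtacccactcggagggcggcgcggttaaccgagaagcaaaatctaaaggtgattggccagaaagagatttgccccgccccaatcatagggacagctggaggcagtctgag
Asns: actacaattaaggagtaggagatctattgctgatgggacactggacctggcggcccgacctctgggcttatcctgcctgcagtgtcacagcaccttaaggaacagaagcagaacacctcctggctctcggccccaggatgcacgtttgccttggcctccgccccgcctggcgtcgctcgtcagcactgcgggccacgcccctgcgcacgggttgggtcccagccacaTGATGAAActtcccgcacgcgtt
The core lay 110 to 103 bases before the start in *Atf3*, 193 to 186 before it in *Chac1*, both on the reverse strand, and 23 to 16 before it on the forward strand in *Asns*. With rGDF11 the log2 fold changes of these genes were −1.94, −0.19 and −0.01, in that order, and of the 3 only *Atf3* fell. The cAMP response element TGACGTCA (1.55% of all promoters), the E-box CACGTG (6.02%) and the ER stress response element (CCAAT and CCACG with 9 bases between them, 0.113%) were in none of the 11 windows. Only exact letters in these windows were searched, so variant forms of an element and elements further away would be missed. A match of letters is a description of the sequence, and binding was not measured.

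**Figure D1:**
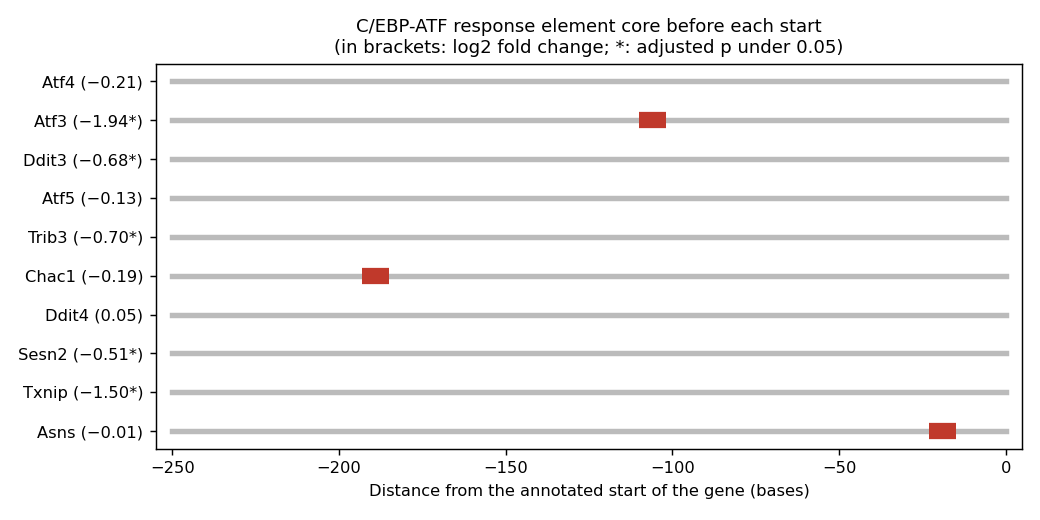
Position of the C/EBP-ATF response element core (red) in the 250 bases before the annotated start (horizontal axis, bases) of the 10 genes, with each log2 fold change in brackets and a star where adjusted p was under 0.05. The core is in *Atf3*, *Chac1* and *Asns*, of which *Atf3* alone has a star; 1 line stands for both starts of *Atf5*, neither of which held it.

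Of the 10 genes, 5 fell with rGDF11, *Atf3*, *Txnip*, *Trib3*, *Ddit3* and *Sesn2*, and 5 did not pass the test. None rose by limma (0, and likewise 0 at an unadjusted p under 0.05 and 0 by the methods' t-test). Among all tested probe sets 8.64% fell and 7.31% rose. All 10 lay above the median brightness, where calls are more frequent (21.3% lower and 17.9% higher in a fit of the brighter probe sets alone). The median log2 fold change of the 10 was −0.36, against 0.02 over all tested probe sets. At the study's threshold, a fold change of 1.5 with an unadjusted p under 0.01, 4 fell and 0 rose, against 2.96% and 2.06% of all. *Sesn2* was the one that missed this fold. The groups did not overlap for 6 of the 10, a separation that 32.9% of all tested probe sets showed, and for these 6 an exact permutation test gave p = 0.1 (two-sided), the smallest that 3 arrays against 3 allow.

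**Figure D2:**
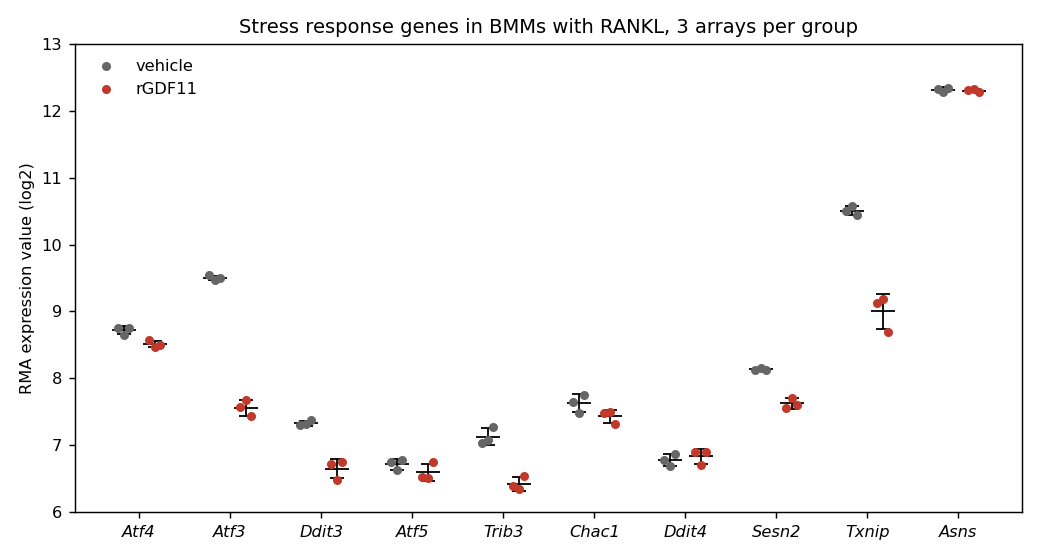
Levels of the 10 genes (vertical axis, log2 RMA value), vehicle in grey and rGDF11 in red, with 1 point per array and the mean and SD of each group of 3. *Atf3* drops from 9.50 to 7.56 and *Txnip* from 10.50 to 9.00, while *Asns* reads 12.32 and 12.30.

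Among the transcription factors, *Atf3* and *Ddit3* fell, and *Atf4* and *Atf5* did not pass the test. *Atf3*, a bZIP factor that is induced by many stresses and represses inflammatory genes in macrophages, read 9.54, 9.47 and 9.49 on the vehicle arrays and 7.57, 7.67 and 7.44 on the rGDF11 arrays. Every rGDF11 array was far below every vehicle array. The level fell by 1.94 on the log2 scale, or 3.85-fold (95% confidence interval of the log2 fold change −2.12 to −1.77, limma adjusted p = 7.89e-06). *Ddit3* encodes CHOP, the factor that links prolonged stress to cell death. It read 7.30, 7.31 and 7.37 with vehicle and 6.72, 6.48 and 6.75 with rGDF11, again without overlap, and was 1.60-fold lower (log2 fold change −0.68, standard error 0.08, adjusted p = 0.00122). *Atf4* itself moved little. It read 8.76, 8.65 and 8.75 with vehicle and 8.56, 8.47 and 8.50 with rGDF11, so all 3 rGDF11 arrays were lower, by 0.21 on average (−0.36 to −0.06), but it did not pass the adjusted test (adjusted p = 0.0693). It did pass among probe sets brighter than the median (adjusted p = 0.0169) and with an intensity trend in the spread (0.0269). *Atf5*, a relative of *Atf4* that also answers mitochondrial stress, read 6.75, 6.62 and 6.78 against 6.52, 6.51 and 6.74. The highest rGDF11 array lay among the vehicle arrays, and the difference of −0.13 (−0.32 to 0.07) did not pass (adjusted p = 0.407).

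Of the stress effectors downstream of ATF4 and CHOP, *Trib3* fell and *Chac1* did not pass the test. *Trib3*, a pseudokinase that restrains AKT and ATF4, read 7.03, 7.07 and 7.27 with vehicle and 6.39, 6.34 and 6.53 with rGDF11. The groups were apart, and *Trib3* was 1.63-fold lower (log2 fold change −0.70, standard error 0.09, adjusted p = 0.00128). *Chac1*, which degrades glutathione, read 7.65, 7.49 and 7.74 against 7.47, 7.50 and 7.32, so the groups overlapped, and its difference of −0.19 had a 95% confidence interval of −0.40 to 0.0098 (adjusted p = 0.205). Among relatives, *Trib1* rose 1.65-fold (adjusted p = 0.00255) and *Trib2* 1.88-fold (adjusted p = 0.00137), opposite in sign to *Trib3*, although the differences between relatives were not tested. *Chac2*, a further glutathione-degrading enzyme, had a log2 fold change of −0.26 (adjusted p = 0.163, and 0.0430 without rGDF11 replicate 2).

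*Sesn2* and *Ddit4* both restrain the growth kinase complex mTORC1. *Sesn2*, a leucine sensor, read 8.13, 8.15 and 8.12 with vehicle and 7.55, 7.71 and 7.60 with rGDF11. The vehicle arrays were nearly equal and all rGDF11 arrays lower, with a log2 fold change of −0.51 (standard error 0.07, 1.42-fold, adjusted p = 0.00145). *Ddit4*, also called REDD1, read 6.78, 6.68 and 6.87 against 6.90, 6.70 and 6.89, with a difference of 0.05 (−0.14 to 0.25, adjusted p = 0.749). Its arrays were intermixed. The p53-responsive sestrin *Sesn1* was 2.30-fold lower, from 9.76 ± 0.06 to 8.56 ± 0.15 (mean ± SD, n = 3 arrays each, by limma adjusted p = 8.39e-05), and *Sesn3* had a log2 fold change of 0.13 (adjusted p = 0.487). Of 16 genes of mTORC1 and the complexes that regulate it, 2 rose, the arginine sensor *Castor1* (0.37) and the inhibitor *Deptor* (0.28), and 0 fell (1 at an unadjusted p under 0.05, 0 by the methods' t-test), with a median of 0.05. Without replicate 1 or 2 of either group, 1 rose, and *Deptor* also failed to pass without vehicle replicate 3. Over all rows and after median centring 1 rose, and among brighter probe sets 4 rose and 1 fell. In the main fit 12.5% of the list rose, against 7.31% of all tested probe sets. The 4 higher and 1 lower of the brighter fit stand beside 17.9% and 21.3% of all its probe sets.

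*Txnip* encodes an arrestin-like protein that binds thioredoxin and slows glucose uptake. It is not a classical ATF4 target, and its transcription follows glucose through MondoA and Mlx. It read 10.49, 10.57 and 10.44 with vehicle and 9.12, 9.19 and 8.70 with rGDF11. Its rGDF11 arrays were the most scattered of the 10 genes, and all were lower, 2.84-fold on average (log2 fold change −1.50, 95% confidence interval −1.80 to −1.21, adjusted p = 0.000178). Among 13 partners and relatives, *Arrdc4*, the arrestin gene that shares this control, also fell (−0.58, limma adjusted p = 0.00628). By the methods' t-test, adjusted in the same way, its adjusted p was 0.0553. *Mlx* fell by 0.27 (limma adjusted p = 0.0265). *Mlxip*, which encodes MondoA, had a log2 fold change of 0.14 (adjusted p = 0.296) and thioredoxin, *Txn1*, one of −0.03 (adjusted p = 0.779). The glucose transporter *Slc2a1*, whose protein TXNIP removes from the surface, rose 1.30-fold (adjusted p = 0.00669). In all, 1 of the 13 rose and 2 fell (7.69% and 15.4%, median −0.03), against 7.31% and 8.64% of all tested probe sets. Among brighter probe sets fitted alone 1 of the list rose and 3 fell, against 17.9% and 21.3% of all of them. The count lower was 1, *Mlx* not passing, without replicate 1 or 3 of either group, with the replicate block and over all rows.

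*Asns*, asparagine synthetase, is the textbook ATF4 target of amino acid supply. It read 12.33, 12.28 and 12.35 with vehicle and 12.31, 12.32 and 12.28 with rGDF11, a difference of −0.01 with a 95% confidence interval of −0.15 to 0.12 (adjusted p = 0.910). The arrays were intermixed. Among 14 other genes of amino acid and one-carbon metabolism, 3 rose, *Aldh1l2* (0.32), *Aldh18a1* (0.32) and *Shmt2* (0.25), and 0 fell (0 at an unadjusted p under 0.05 and 0 by the methods' t-test), with a median log2 fold change of 0.16. With an array left out the count was 0 (without vehicle replicate 1 or 2 or rGDF11 replicate 1), 1 (without rGDF11 replicate 2), 2 or 3. It was also 1 with the replicate block, after median centring, over all rows and by the methods' t-test, and 5 among brighter probe sets. Of 10 amino acid transporters, 5 rose and 0 fell (likewise 0 at an unadjusted p under 0.05 and 0 by the methods' t-test), with a median of 0.26, and 5 rose whichever array was left out. The cystine transporter *Slc7a11* was 2.26-fold higher, from 7.76 ± 0.15 to 8.94 ± 0.10 (mean ± SD, n = 3 arrays each, by limma adjusted p = 0.000143). The glutamine transporter *Slc1a5* was 1.51-fold higher and the leucine transporter *Slc7a5* 1.40-fold higher. Of 17 aminoacyl-tRNA synthetases, 2 fell, *Wars* (−0.31) and *Sars* (−0.27), and 0 rose by limma (3 at an unadjusted p under 0.05, 0 by the methods' t-test). The list's median was 0.05, and 0 or 1 fell with an array left out (0 without vehicle replicate 2 or 3 or rGDF11 replicate 3, 1 without each of the others), *Sars* passing in none of these fits. The 0 higher did not hold under every setting, since 3 rose and 3 fell both among brighter probe sets and with an intensity trend, and 1 rose with quantile normalization and without vehicle replicate 2. The shares of genes called on these lists stand beside 7.31% higher and 8.64% lower over all tested probe sets. In the fit of brighter probe sets alone, where 5 transporters rose as well, those shares were 17.9% and 21.3%.

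**Figure D3:**
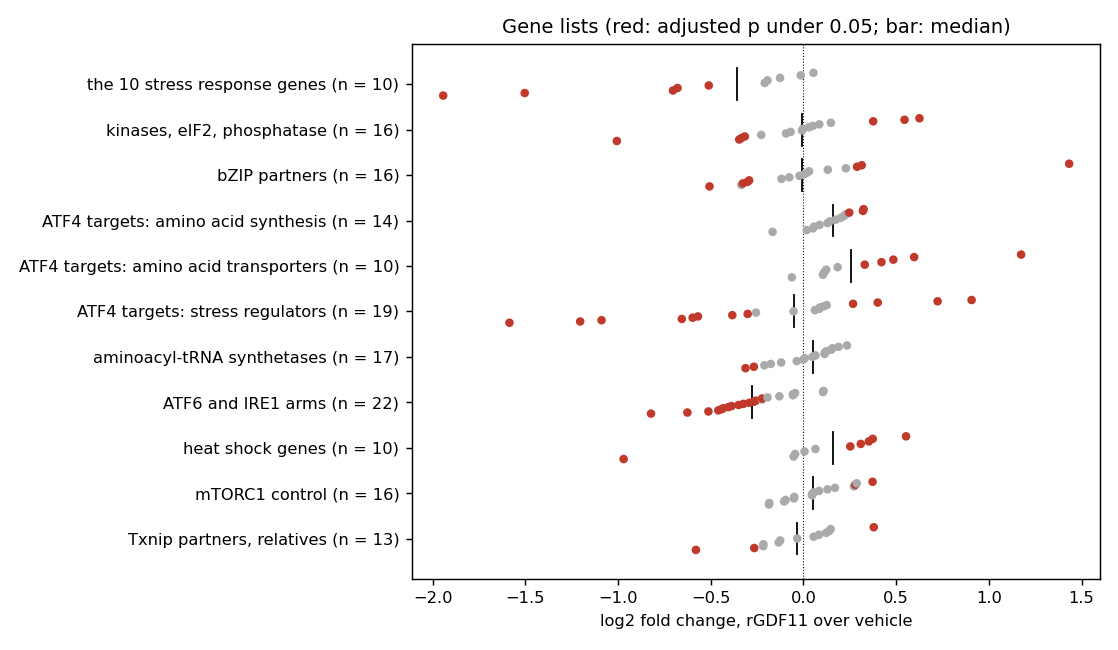
Log2 fold change (rGDF11 over vehicle, horizontal axis) of the 10 stress response genes and of 10 lists of related genes, 1 point per gene. The row of ATF4 stress targets also holds relatives of the 10 genes, such as *Trib1* and *Trib2*. Red marks an adjusted p under 0.05 and black bars are medians; the stress response genes (median −0.36) and the ATF6 and IRE1 arms (median −0.28) lie mostly to the left, the amino acid transporters (median 0.26) mostly to the right.

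Of 19 other stress regulators, 8 fell and 4 rose (42.1% and 21.1%, median −0.05), against 8.64% and 7.31% of all tested probe sets. Among brighter probe sets fitted alone 8 of the list fell and 4 rose, against 21.3% and 17.9% of all of them. The list joins genes listed as ATF4 targets with relatives of the 10 genes, *Trib1*, *Trib2*, *Sesn1*, *Sesn3* and *Chac2*. Of these relatives, *Trib1* and *Trib2* rose and *Sesn1* fell. *Ndrg1*, a gene also induced by hypoxia, went from 8.82 ± 0.03 to 7.23 ± 0.01 (mean ± SD, n = 3 arrays each, log2 fold change −1.59, adjusted p = 5.64e-06 by limma). *Nupr1*, a stress-induced chromatin regulator, fell by 1.09 and the autophagy gene *Atg12* by 0.66 on the log2 scale. With *Trib1* and *Trib2* the rises were 0.27 to 0.91, and 7 to 8 genes fell whichever array was left out. The count higher was 4 without vehicle replicate 1 and 3 without each of the other arrays. It was also 3 with the replicate block, over all rows and by the methods' t-test.

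The 4 kinases upstream gave 1 gene lower, 1 higher and 2 without a call. *Eif2ak2* encodes PKR, the double-stranded RNA sensor that interferon induces. It was 2.01-fold lower, reading 9.26 to 9.29 with vehicle and 8.04 to 8.46 with rGDF11 (log2 fold change −1.01, standard error 0.11, adjusted p = 0.000542). *Eif2ak4*, the amino acid sensor GCN2, was 1.54-fold higher (0.63, adjusted p = 0.00111), and *Gcn1*, its activator, rose by 0.38. *Eif2ak3*, the endoplasmic reticulum sensor PERK, had a log2 fold change of −0.23 (adjusted p = 0.0854, with 0.0263 to 0.231 over 15 alternatives), and *Eif2ak1*, the heme-regulated kinase, one of 0.05 (adjusted p = 0.682). *Ppp1r15a*, GADD34, the stress-induced subunit that removes phosphate from eIF2α, fell by 0.35 (adjusted p = 0.00967). Its constitutive counterpart *Ppp1r15b* had a log2 fold change of −0.01 (adjusted p = 0.961), whose sign turned with quantile normalization and without vehicle replicate 2 or 3 or rGDF11 replicate 3. *Eif2b3*, a subunit of the exchange factor that phosphorylated eIF2 blocks, rose by 0.55, and *Dnajc3*, an inhibitor of the kinases, fell by 0.33. Of 16 genes of this group 3 rose and 4 fell (18.8% and 25%, median −0.01), against 7.31% and 8.64% of all tested probe sets. Among brighter probe sets fitted alone 3 of the list rose and 5 fell, against 17.9% and 21.3% of all of them. The count lower was 2 without rGDF11 replicate 1, among those lost *Dnajc3* (limma adjusted p = 0.0524). It was 3 without each of the other arrays, over all rows and by the methods' t-test.

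Of the C/EBP partners of ATF4, *Cebpb* (−0.08, adjusted p = 0.606) and *Cebpg* (−0.02, adjusted p = 0.865, turning sign without rGDF11 replicate 1) did not pass. Of 16 bZIP factors 3 rose and 4 fell (18.8% and 25%, median −0.01). Over all tested probe sets 7.31% rose and 8.64% fell. Among brighter ones fitted alone 3 of the list rose and 4 fell, against 17.9% and 21.3% of all of them. *Jdp2*, an ATF3 relative that acts in osteoclast formation, rose 2.70-fold (adjusted p = 4.78e-05), whereas *Creb3*, a membrane-bound factor, fell by 0.51 (adjusted p = 0.000976) and *Nfe2l2*, NRF2, by 0.33 (adjusted p = 0.0238, and up to 0.0865 with 1 array left out). With any 1 array left out, 1 to 3 rose and 1 to 2 fell. The lowest counts were 1 higher without vehicle replicate 2 or rGDF11 replicate 1, and 1 lower without vehicle replicate 3 or rGDF11 replicate 1 or 3. The count lower was 2 without each of the other arrays, and 1 over all rows and by the methods' t-test.

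**Figure D4:**
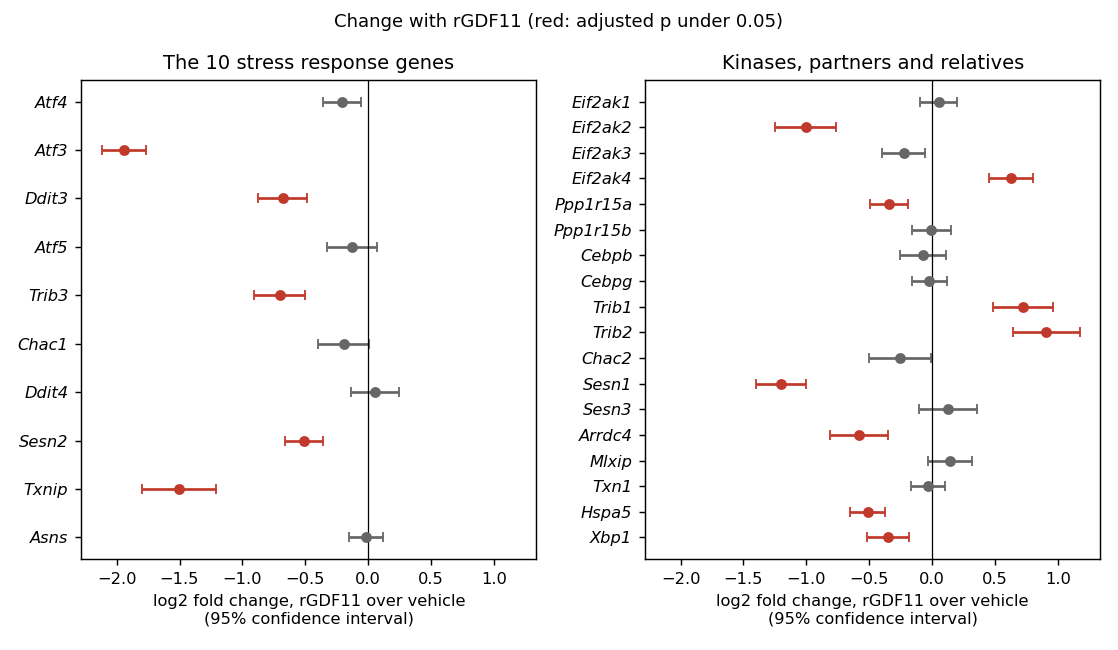
Log2 fold change (rGDF11 over vehicle, horizontal axis) with 95% confidence intervals, for the 10 genes, left, and for kinases, phosphatase subunits, partners and relatives, right. Red marks an adjusted p under 0.05; 5 of the 10 lie left in red, and *Eif2ak2* and *Eif2ak4* lie on opposite sides.

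Many genes of the neighbouring arms of the unfolded protein response fell. Of 22 chaperones and folding or degradation factors of the ATF6 and IRE1 arms, 14 were lower with rGDF11 and 0 higher (0 at an unadjusted p under 0.05 and 0 by the methods' t-test), against 8.64% and 7.31% of all tested probe sets. With 1 array left out 10 to 11 fell. Among brighter probe sets fitted alone 15 of the list fell, against 21.3% of all of them. The falls ran from −0.22 to −0.82, with a median over the list of −0.28. *Hspa5*, the chaperone BiP that reports endoplasmic reticulum stress, was 1.43-fold lower, from 11.91 ± 0.03 to 11.39 ± 0.04 (mean ± SD, n = 3 arrays each, by limma adjusted p = 0.000877). *Pdia6* (−0.63) and *Hsp90b1* (−0.46), which fold secreted proteins, fell as well. *Dnajb9*, a BiP cochaperone that IRE1 signalling induces, fell by 0.82 (limma adjusted p = 0.00736). By the methods' t-test, adjusted in the same way, its adjusted p was 0.0755. *Xbp1*, the factor that IRE1 splices, fell by 0.35 (limma adjusted p = 0.0140, and 0.0563 without vehicle replicate 3). The arrays give 1 value for *Xbp1* and do not separate its spliced form here. Of 10 heat shock genes, 5 rose, among them the small heat shock protein *Hspb1* (0.55) and the cochaperone *Bag3* (0.37), and 1 fell, *Hspa1a* (−0.97), whose near-identical copy *Hspa1b* had no probe set of its own, so its value is uncertain. The median was 0.16, and the shares called were 50% higher and 10% lower, against 7.31% and 8.64% of all tested probe sets. Among brighter probe sets fitted alone 4 of the list rose and 1 fell, against 17.9% and 21.3% of all of them. Without vehicle replicate 3 or any one of the rGDF11 replicates, and also with the replicate block and over all rows, 3 rose. *Hspb1* did not pass without replicate 2 or 3 of either group, nor *Bag3* without rGDF11 replicate 1, and by the methods' t-test 2 rose and 0 fell.

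Genes with the pattern most like that of *Atf3* or *Txnip* were sought among 9917 brighter genes, by the root mean square difference of the 6 centred log2 values. Nearest to *Atf3* were *Irgm1*, an interferon-induced GTPase (0.074), *Lpl*, lipoprotein lipase (0.098), and *Clec4a1*, a C-type lectin receptor (0.099), with log2 fold changes of −1.96, −1.98 and −1.93. Nearest to *Txnip* were *Aoah*, which inactivates endotoxin (0.050), *Wfdc17* (0.093) and *Gm8995* (0.094), with log2 fold changes of −1.46, −1.43 and −1.56. With 2 groups of arrays, likeness in this measure is mostly likeness in the size of the fall.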

How the data were processed

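Total RNA of each BMM sample was read on 1 array. The log2 values deposited by the authors had been through RMA (background correction, normalization across arrays, probe set summary). Their tools were Expression Console and, by the submitters' processing notes as well, version 3.0 of Transcriptome Analysis Console. The deposited table has 35556 rows and no detection calls. Probe sets were named by the platform annotation, 21789 with 1 symbol, 1621 with several and 12146 with none. Symbols were checked by Entrez identifier against a GRCm38.p6 gene table, which held 21698 of the first and changed 0.

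The 23410 probe sets with a symbol were tested with limma 3.58.1 in R 4.3.3 (lmFit, eBayes, two-sided, 3.67 prior and 4 residual degrees of freedom) with Benjamini-Hochberg adjustment. A gene entered by its brightest probe set with 1 symbol. The fit was tested on simulated data. Genes named are the 10, kinases, phosphatase subunits, partners and relatives, up to 3 further genes per list with the largest change past the test, and 3 most like *Atf3* and *Txnip*. Members and lists were chosen with earlier results of these data known. Array number limits precision. Alternatives were the rows tested, brightness, 2 normalizations, 2 estimates of spread, the methods' t-test and threshold, the replicate block and each array left out. The methods' t-test was given the same Benjamini-Hochberg adjustment, which the study's methods do not name.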

Additional observations from a re-analysis of the deposited data

How the results depend on the processing

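The counts of 5 of the 10 genes lower and 0 higher were the same with the replicate block, whichever array was left out (5 to 5 lower, 0 to 0 higher) and under the other alternatives, except that 6 were lower among brighter probe sets and with an intensity trend, where *Atf4* passed (adjusted p = 0.0169 and 0.0269), and 4 at the methods' threshold, which *Sesn2* missed. *Asns* turned sign with quantile normalization, to 0.0148 (adjusted p = 0.901). Each gene has 1 probe set, so averaging probe sets changes nothing. Over the 153 related genes, 26 rose and 35 fell. These counts were 17 to 22 and 23 to 27 with 1 array left out, lowest without rGDF11 replicate 1 and vehicle replicate 3, and 22 and 32 with the replicate block. Deviations of same-numbered arrays correlated at 0.064, 0.33 and −0.00083 across probe sets, and not every array correlated best with its own number. With 3 arrays per group, such correlations cannot show whether same-numbered samples shared a preparation or batch. Dim probe sets carry no detection call, and 3 arrays per group leave small differences unresolved.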
